A study of Mus musculus with 10 samples.

Results

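The transcription factor p53 and the genes it switches on were followed here through 31 listed genes: direct targets of p53 that arrest the cell cycle, start apoptosis or repair DNA, and the regulators that hold p53 in check. The list was matched by gene name to the deposited count table of 22740 protein-coding genes, and 30 of the 31 names have a row. The remaining member, Pidd1, which encodes a death-domain scaffold protein, has no row of that name; the row with its identifier (ENSMUSG00000025507) carries the older name Lrdd and is described separately, outside all counts of members. All 30 rows passed the filter on low counts and were tested.

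The libraries came from oesophageal tissue of C57BL/6 mice that had all received 4-NQO, a quinoline compound whose metabolites form bulky adducts on DNA, given to induce tumours. The 5 mice of the first group are labelled Grhl3 knockout (called Grhl3 KO here) and their tissue is labelled oesophageal tumour; the 5 mice of the second group are labelled wild type and their tissue only oesophageal tissue, although the series' design text speaks of tumours from both. Genotype and tissue label therefore change together and cannot be told apart. The series title speaks of conditional knockouts; the promoter that drives Cre, the age of the mice and the length of exposure do not stand in the labels, and no unexposed mice were analysed here. Each library has its own sample number, by which it is named below.

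As background, p53 is kept at low levels in undamaged cells because MDM2, a ubiquitin ligase, marks it for degradation, and MDM4 blocks its activity. DNA damage activates kinases that release p53 from both, and p53 then raises transcription of genes for arrest (Cdkn1a), for death (Bax, Bbc3, Pmaip1, the death receptors) and for its own shutdown (Mdm2, Ppm1d, Ccng1), which closes a feedback loop. In stratified epithelium several of these genes, among them Perp and Sfn, are also driven by p63, the relative of p53 that maintains squamous tissue. Mutation of the p53 gene is common in squamous tumours of the upper digestive tract, and gene counts do not show it.

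Sequences near the start sites are shown because a shared p53 motif is the feature that these genes are best known for. RefSeq windows of 300 bases (250 before and 50 after a start site, build GRCm38.p6) were at hand for 25 of the 31 listed genes, Pidd1 among them. The p53 decamer, the unit of which a full p53 site holds a pair, was searched by its degenerate consensus; it reads the same on both strands. It matched in 11 of the 25 genes (44.0%), against 9.55% of 27025 genes with a window. Counted by window, 12 of 36 member windows (33.3%) and 8.36% of all 32851 windows held it. A full site was searched only as a pair of decamers with no bases between them. It matched in 0 of the 36 member windows and in 3 of all 32851. Pairs with bases between them, as in the Cdkn1a window below, were not searched for, so these counts do not show that full sites are absent. A looser pattern, a pair of CATG cores 6 bases apart, matched in 1 of the 25 member genes (4%), Cdkn1a, and in 0.833% of all genes. In the lines that follow, capitals mark the decamer and all else is lower case; Cdkn1a and Eda2r are shown as the 250 bases before a start site and the others as the decamer with its neighbours.
Cdkn1a, chr17:29090729-29090978 (plus strand): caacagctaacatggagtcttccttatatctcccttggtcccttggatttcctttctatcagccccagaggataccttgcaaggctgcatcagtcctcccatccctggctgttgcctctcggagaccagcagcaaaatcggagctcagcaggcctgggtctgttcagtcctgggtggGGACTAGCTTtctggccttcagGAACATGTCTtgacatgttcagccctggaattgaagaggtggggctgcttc
Mdm2, chr10:117710925-117710954 (minus strand): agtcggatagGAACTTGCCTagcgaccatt
Ccng1, chr11:40755452-40755481 (minus strand): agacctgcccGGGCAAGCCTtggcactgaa
Bax, chr7:45467080-45467109 (minus strand): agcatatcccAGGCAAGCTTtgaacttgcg
Gadd45a, chr6:67037428-67037457 (minus strand): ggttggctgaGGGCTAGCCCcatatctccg
Eda2r, chrX:97377210-97377459 (minus strand): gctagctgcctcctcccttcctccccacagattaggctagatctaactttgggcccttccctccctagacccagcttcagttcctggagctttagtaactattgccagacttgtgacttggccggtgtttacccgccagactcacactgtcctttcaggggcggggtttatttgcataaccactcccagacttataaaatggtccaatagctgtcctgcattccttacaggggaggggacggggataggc

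The Cdkn1a window belongs to the upstream of its 2 RefSeq start sites, and the second decamer in it is followed directly by tgacatgttc, which the consensus does not match. The window at the other Cdkn1a start site held no decamer. Counted from the start site, with bases before it negative, the Mdm2 decamer begins at -186, that of Ccng1 at -185, that of Bax at -201 and that of Gadd45a at -40. Aen, Ei24, Gtse1, Polk, Ppm1d and Sesn1 make up the rest of the 11. Eda2r, the member with the smallest p in the comparison below, had no match in its window, and neither did Apaf1 or Gdf15; these letters are then only not in these windows. A match is a description of the sequence and not evidence of binding.

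Library totals lay between 15.3 and 32.9 M counts (M, the SI prefix mega), so that the most weakly expressed member, Gdf15, rests on 5 to 54 counts and the strongest, Perp, on 51895 to 130572. Keratins of oesophageal epithelium were abundant in every library, with Krt14 at 13163 to 20532 CPM and Krt13 at 4958 to 43057 CPM, where CPM is counts per M of scaled library size. The deleted gene, Grhl3, stood at 222 ± 66.8 CPM in the libraries labelled Grhl3 KO against 207 ± 112 CPM (SD, n = 5 each; edgeR adjusted p = 0.979), so whole-gene counts showed no loss of Grhl3 RNA under that label, and every direction given below rests on the labels. The 4 Y-linked genes summed to 162 to 203 CPM in the Grhl3 KO libraries. In wild type they summed to 154 and 177 CPM in libraries 1028 and 1048, to 72.3 CPM in 1561, and to 0.0527 and 0.0539 CPM in 1528 and 1555. Over all 13731 genes tested, 11 (0.0801%) were called, that is, had a Benjamini-Hochberg adjusted p under 0.05 by the quasi-likelihood test of edgeR.

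No member passed that threshold. Of the 30 members, edgeR called 0 higher and 0 lower, beside 0.0291% and 0.051% of all genes. The limma voom fit also called 0 (0.00728% of all genes), and DESeq2 called 1, Eda2r (0.859% of all genes). At an unadjusted edgeR p under 0.05 stood 7 members (23.3%), 5 higher in Grhl3 KO and 2 lower, beside 7.16% of all genes (3.44% higher, 3.72% lower). Higher were Eda2r, Gdf15, Apaf1, Mdm2 and Ccng1, and lower were Gadd45a and Bcl2l1. For 3 members (10%) every Grhl3 KO library lay above every wild-type library, and for 0 the reverse, beside 0.787% and 0.568% of all genes (1.35% in all). These counts of 7 and 3 are descriptions, since members of a pathway are not independent and the list was drawn up with earlier results of these data known. The median log2 fold change (Grhl3 KO minus wild type) of the members was 0.05, with 19 of 30 above 0, and that of all genes was -0.0011, with 49.7% above 0. By size, 27 of 30 members (90%) differed by less than 0.5 on the log2 scale, as did 89.7% of all genes.

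**Figure D1:**
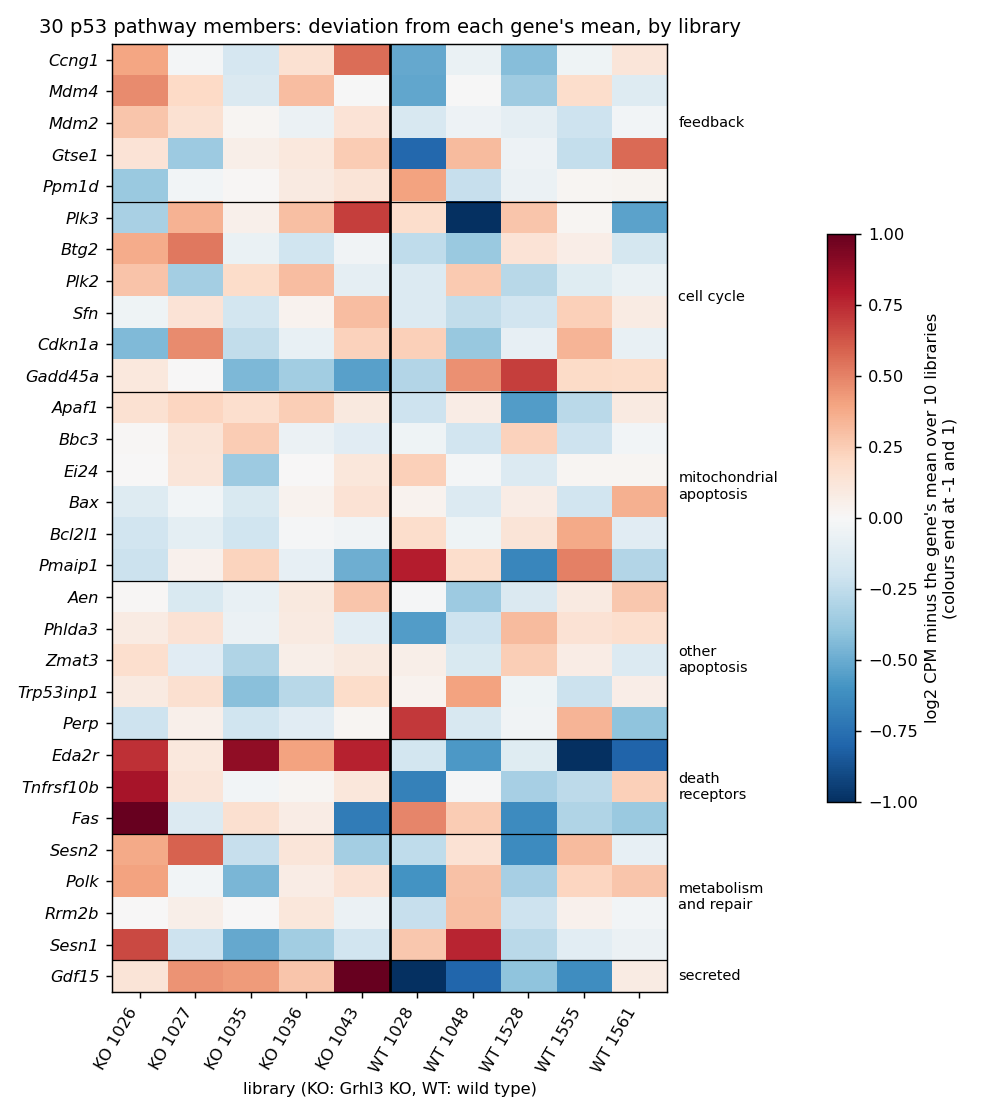
Each row is a member, grouped by role, and each column a library; colour shows log2 CPM minus the gene's own mean over the 10 libraries, with colours ending at -1 and 1. In the Eda2r row the 5 Grhl3 KO columns lie above and the 5 wild-type columns below the gene's mean, while Cdkn1a and Plk3 vary within both groups.

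Levels per length set the members far apart. Divided by the length of their annotated exons (mean CPM per kb over all 10 libraries), Perp stood at 1973 and Sfn at 1687, far above the next member. Perp encodes a desmosomal protein needed for cell adhesion in stratified epithelium and first found as an apoptosis effector, and Sfn encodes stratifin, an adaptor that keeps mitotic cyclin complexes in the cytoplasm. Phlda3, an inhibitor of AKT signalling, followed at 213 CPM per kb and Cdkn1a at 88.6. At the other end stood Rrm2b at 1.49, Fas at 1.60 and Gdf15 at 0.533 CPM per kb. Together the 30 members took 0.774 to 0.940% of all counts, with means of 0.825 ± 0.0456% (Grhl3 KO) and 0.854 ± 0.0707% (wild type; SD, n = 5 each; two-sided exact permutation p = 0.452).

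Among the regulators that restrain p53, Mdm2 and Ccng1 were higher in Grhl3 KO at an unadjusted p and Ppm1d was not. Mdm2 stood at 79.9, 73.2, 66.5, 63.0 and 72.3 CPM in Grhl3 KO libraries 1026, 1027, 1035, 1036 and 1043. In wild-type libraries 1028, 1048, 1528, 1555 and 1561 it stood at 58.9, 63.4, 61.7, 57.1 and 64.6 CPM. Only Grhl3 KO library 1036 fell within the wild-type range, below 1048 and 1561. The log2 fold change was 0.21 (SE 0.08, 95% limits 0.04 to 0.39), a ratio of means of 1.16, with an unadjusted p of 0.0228 and an edgeR adjusted p of 0.611. With any single library left out it stayed between 0.17 and 0.25.

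Mdm4, the partner of MDM2 that blocks p53 activity, ran from 23.6 to 36.4 CPM in Grhl3 KO and from 18.3 to 29.6 CPM in wild type. The groups overlapped and the log2 fold change of 0.33 had limits of -0.01 to 0.67 (edgeR adjusted p = 0.714). Ccng1, encoding cyclin G, which brings a phosphatase to MDM2, stood at 162, 121, 109.5, 137 and 181 CPM in the Grhl3 KO libraries, in the order given for Mdm2. The wild-type values were 86.4, 118, 91.6, 119 and 134 CPM. Grhl3 KO libraries 1026, 1036 and 1043 lay above every wild-type library and the other 2 within the wild-type range. Its log2 fold change was 0.37 (SE 0.16, edgeR adjusted p = 0.688) and was 0.26 without Grhl3 KO library 1043.

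Ppm1d, encoding the phosphatase WIP1 that switches off the damage kinases, had Grhl3 KO and wild-type means of 21.0 ± 2.68 and 22.0 ± 3.71 CPM (SD, n = 5 each). Wild-type library 1028 was the highest of all at 28.2 CPM and Grhl3 KO library 1026 the lowest at 16.5 CPM. Gtse1 encodes a microtubule-binding protein of mitosis that moves p53 out of the nucleus, and it stood at 19.3 ± 2.90 and 19.1 ± 6.54 CPM. Wild-type libraries held both its lowest value, 10.8 CPM in 1028, and its highest, 27.6 CPM in 1561. The 95% limits of the fold change were -0.37 to 0.23 for Ppm1d and -0.48 to 0.51 for Gtse1.

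The arrest genes gave no shared direction, and Cdkn1a, the classic p53 target encoding an inhibitor of cyclin-dependent kinases, did not separate the groups. Its Grhl3 KO values were 227, 429, 260.1, 293 and 362 CPM in libraries 1026, 1027, 1035, 1036 and 1043. The wild-type values were 364, 237, 290.4, 391 and 293 CPM in 1028, 1048, 1528, 1555 and 1561. Both groups spanned nearly the same range, with means of 314 ± 81.2 and 315 ± 61.7 CPM (SD, n = 5 each). The log2 fold change was -0.0038 (95% limits -0.42 to 0.41, edgeR adjusted p = 0.999), so that moderate changes in both directions lie within the limits.

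Gadd45a, a stress gene whose product binds PCNA and the damage-response kinases, was the member lowest in Grhl3 KO relative to wild type. It stood at 22.3, 20.8, 15.1, 16.2 and 14.2 CPM in Grhl3 KO and at 16.9, 28.5, 33.5, 23.7 and 23.5 CPM in wild type, libraries in the same order. Apart from library 1028, every wild-type library lay above every Grhl3 KO library. The log2 fold change was -0.51 (SE 0.19, unadjusted p = 0.0213, edgeR adjusted p = 0.599), and it ran from -0.63 with wild-type library 1028 left out to -0.38 when wild-type library 1528 was left out. Of its longest transcript 19.5% is near-identical to a transcript of another gene, and how reads from that stretch were counted is unknown.

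Btg2, an antiproliferative gene that responds both to p53 and to growth signals, ran from 107 to 178 CPM in Grhl3 KO and from 95.04 to 136 CPM in wild type. Plk3, encoding a stress-activated polo-like kinase, ran from 47.0 to 94.8 and from 29.3 to 71.0 CPM, and its relative Plk2 from 90.2 to 141 and from 94.0 to 137 CPM. Their log2 fold changes were 0.25, 0.39 and 0.15, each with limits that include 0 (edgeR adjusted p from 0.795 to 0.896). That of Btg2 was 0.13 without Grhl3 KO library 1027, and that of Plk3 0.24 without wild-type library 1048. The level of Sfn had Grhl3 KO and wild-type means of 2814 ± 366 and 2628 ± 381 CPM (SD, n = 5 each; log2 fold change 0.10, 95% limits -0.20 to 0.40). Of the Sfn transcript 44.1% is near-identical to 1 other gene.

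Btg2, Plk2 and Plk3 also belong to the genes that respond within minutes to handling and growth factors, so the immediate early genes were read beside them. Of 21 such genes tested, 12 were higher and 9 lower, with 0 called, 2 higher and 0 lower at an unadjusted p under 0.05, and a median of 0.03. Jund was at 0.53 and Maff at 0.64 on the log2 scale, and Fos at -0.55 and Cyr61 at -0.96 (edgeR adjusted p from 0.146 to 0.784). Their summed level was 1806 to 2480 CPM in Grhl3 KO and 1727 to 2399.6 CPM in wild type. With the immediate early level held fixed in the fit, the fold change of Btg2 was 0.23, that of Plk2 0.15 and that of Plk3 0.38. Across the 10 libraries the mean log2 CPM of the immediate early genes correlated with Btg2 at an r of 0.49 (permutation p = 0.145, adjusted 0.568) and a rho of 0.53 (permutation p = 0.123, adjusted 0.528). For Plk2 r was -0.56 (permutation p = 0.0974, adjusted 0.475) and rho -0.27 (permutation p = 0.450, adjusted 0.821). For Plk3 r was 0.20 (permutation p = 0.581, adjusted 0.869) and rho 0.42 (permutation p = 0.233, adjusted 0.680). Without the 2 libraries farthest from the median, 1027 of Grhl3 KO and 1528 of wild type, r was 0.01, -0.02 and -0.12 for Btg2, Plk2 and Plk3, so the values of r for Btg2 and Plk2 rest on those libraries.

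Among the genes of the mitochondrial route to apoptosis, Apaf1 was higher and Bcl2l1 lower in Grhl3 KO at an unadjusted p. Apaf1 encodes the scaffold of the apoptosome, which activates caspases once cytochrome c leaves the mitochondrion. Its Grhl3 KO values lay close together, at 24.3, 25.4, 24.6, 26.0 and 23.4 CPM. In wild type they spread over 18.96, 23.1, 14.9, 18.1 and 23.2 CPM. The groups did not overlap, but the gap between the lowest Grhl3 KO library (1043) and the highest wild-type library (1561) was under 1 CPM. The log2 fold change was 0.33 (SE 0.12, unadjusted p = 0.0215, edgeR adjusted p = 0.599). It was 0.19 without wild-type libraries 1528 and 1555, which lack Y-linked counts and hold the lowest Apaf1 values.

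Bcl2l1, whose main product BCL-XL protects the mitochondrion and is held in check by p53-induced proteins, stood at 42.6, 45.5, 42.4, 48.3 and 47.5 CPM in Grhl3 KO. Its wild-type values were 55.1, 47.2, 53.2, 63.3 and 44.9 CPM. Wild-type libraries 1048 and 1561 lay within the Grhl3 KO range and the other 3 above it. The log2 fold change was -0.22 (SE 0.10, unadjusted p = 0.0495, edgeR adjusted p = 0.697), and -0.12 without wild-type libraries 1528 and 1555.

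The 3 p53-induced genes that act against BCL-XL did not separate the groups. Bax, the pore-forming member, was at 58.7 ± 5.04 and 61.4 ± 9.49 CPM in Grhl3 KO and wild type (SD, n = 5 each), with the highest value, 76.4 CPM, in wild-type library 1561. Bbc3, which encodes PUMA, was at 5.49 ± 0.578 and 5.15 ± 0.660 CPM. Pmaip1, encoding NOXA, spread from 43.6 to 71.4 CPM in Grhl3 KO and from 38.9 to 105 CPM in wild type. The 95% limits of the log2 fold change were -0.31 to 0.18 for Bax, -0.25 to 0.44 for Bbc3 and -0.83 to 0.27 for Pmaip1. Ei24, a p53-induced gene whose product lies in the endoplasmic reticulum, was at 120 ± 15.1 and 123 ± 11.8 CPM. Of the Bax and Cdkn1a transcripts 17.6% and 12.6% are near-identical to 1 other gene each.

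None of the 5 measured effectors grouped here as other apoptosis genes stood at an unadjusted p under 0.05. Aen, a nuclease, had a log2 fold change of 0.05, Phlda3 one of 0.03 and Zmat3, an RNA-binding zinc finger gene, one of -0.03. Trp53inp1, which promotes autophagy and p53 phosphorylation, was at -0.10. Perp had Grhl3 KO and wild-type means of 3546 ± 297 and 4157 ± 1318 CPM (SD, n = 5 each), with a log2 fold change of -0.23. Wild-type libraries 1028 and 1555 reached 6157 and 4754 CPM, above every Grhl3 KO library, and wild-type library 1561 was the lowest of all at 2849.9 CPM; without 1028 the fold change was -0.05. None of the 5 had an edgeR adjusted p under 0.878. The row named Lrdd, which holds the identifier of Pidd1, stood at 4.36 to 5.69 CPM in Grhl3 KO and 4.20 to 9.27 CPM in wild type (log2 fold change -0.35, edgeR adjusted p = 0.824).

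The death receptor genes were all higher in Grhl3 KO by fitted level, and Eda2r set the groups apart most clearly of all members. Eda2r is X-linked and encodes a receptor of the TNF family that binds ectodysplasin. It stood at 17.99, 11.7, 20.1, 14.3 and 18.5 CPM in Grhl3 KO libraries 1026, 1027, 1035, 1036 and 1043. It stood at 9.53, 7.27, 9.97, 4.63 and 6.17 CPM in wild-type libraries 1028, 1048, 1528, 1555 and 1561. The groups did not overlap. The ratio of means was 2.20 and the log2 fold change 1.14 (SE 0.23, 95% limits 0.63 to 1.64).

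Eda2r had an unadjusted p of 0.00041 and missed the threshold over all genes in edgeR (adjusted p = 0.166), while DESeq2 gave 1.13 with an adjusted p of 0.000919. On simulated counts of 13731 genes, 200 of them changed, DESeq2 made 34 false calls and recovered 76% of 2-fold changes. For edgeR there was 1 false call, and 52% of 2-fold changes were recovered. Over all alternatives the Eda2r fold change stayed between 0.97 and 1.26. Its adjusted p ran from 0.000919 with DESeq2 up to 0.806. The lower series of sample numbers holds all Grhl3 KO libraries but only 2 wild-type libraries. Within it the Eda2r fold change was 0.98, with an adjusted p of 0.586. The wild-type libraries outside that series are those with the fewest Y-linked counts. Among wild-type libraries 1528 was the highest in Eda2r and 1555 the lowest, and both lack Y-linked counts. All Grhl3 KO libraries carry Y-linked counts, so Y-linked level and group change together in part. With the Y-linked level held fixed in the fit, the Eda2r fold change was 1.09. A link between Eda2r and Y-linked level was not tested. Skeletal muscle, the outer layer of the mouse oesophagus, was uneven between libraries, and its 23 marker genes summed to 4664, 1222, 3091, 994 and 7438 CPM in the Grhl3 KO libraries. In the wild-type libraries they summed to 2204, 1729, 1859, 3884 and 1987 CPM. All 22 tested markers had a fold change above 0, and 0 were called. Their summed level was not shown to differ between the groups (exact permutation p = 0.405, adjusted 0.879). The 2 Grhl3 KO libraries with the least muscle, 1027 and 1036, also had the least Eda2r of their group, whereas wild-type library 1555 had the most muscle and the least Eda2r of its group. With the muscle level held fixed in the fit, the Eda2r fold change was 1.07. In bulk tissue fewer cells of a type and less RNA per cell cannot be told apart.

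Tnfrsf10b, the mouse receptor for the death ligand TRAIL, reached 22.7 CPM in library 1026 of Grhl3 KO, while the other 4 lay between 12.5 and 13.9 CPM. In wild type it ran from 7.97 to 15.2 CPM. Library 1026 carried much of the difference: the log2 fold change of 0.42 (SE 0.21, edgeR adjusted p = 0.731) was 0.23 without it. Of its longest transcript 23.5% is near-identical to transcripts of many other genes, so part of its count may be uncertain. Fas, the receptor of Fas ligand, was low, from 1.85 to 6.98 CPM in Grhl3 KO and from 1.95 to 4.34 CPM in wild type. Its highest value was again in library 1026, and without that library its fold change went from 0.30 to -0.06.

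**Figure D2:**
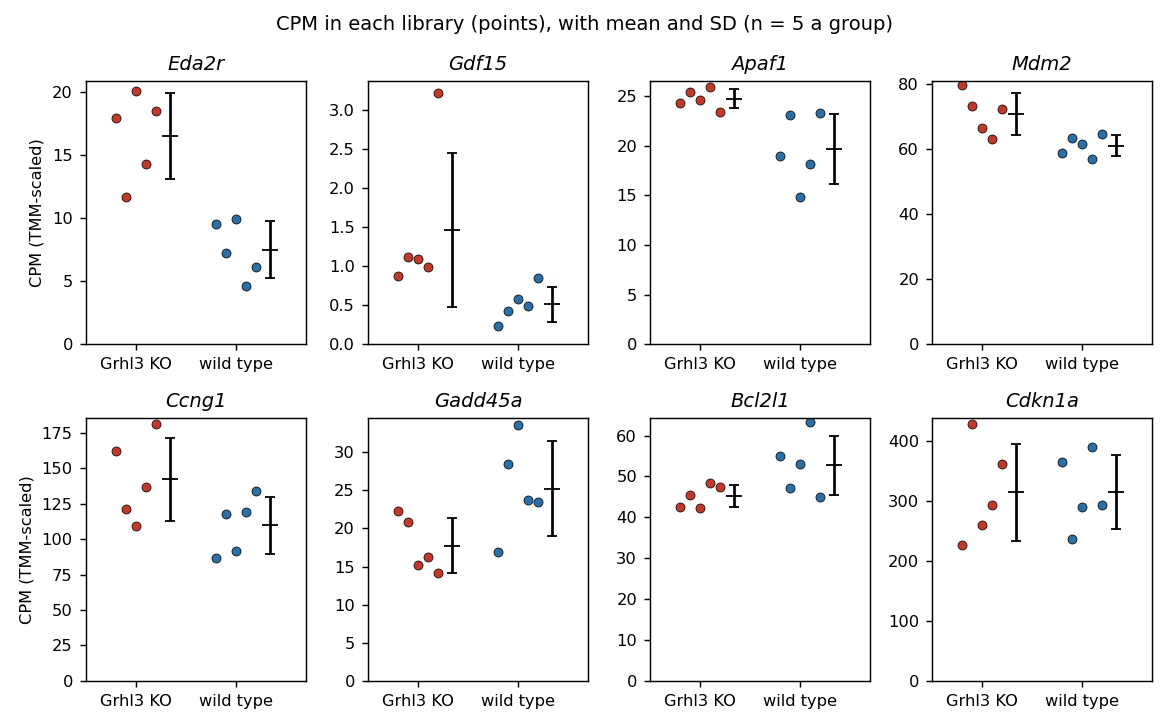
Points show the CPM of 8 members in each of the 5 Grhl3 KO and 5 wild-type libraries, in order of library number, with the group mean and SD beside them; every vertical axis starts at 0. The groups do not overlap for Eda2r, Gdf15 and Apaf1, and they share nearly the same range for Cdkn1a.

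Gdf15, the secreted stress cytokine of the TGF-beta family, had the largest fold change of the members and the lowest level. It stood at 0.881, 1.12, 1.10, 0.985 and 3.22 CPM in Grhl3 KO and at 0.236, 0.421, 0.580, 0.485 and 0.847 CPM in wild type, in the library order used above. The groups did not overlap, although Grhl3 KO library 1026 and wild-type library 1561 were nearly equal. The log2 fold change was 1.48 (SE 0.46, 95% limits 0.46 to 2.50, edgeR adjusted p = 0.466). Without Grhl3 KO library 1043 it was 0.98. Library 1043 also held the most skeletal muscle RNA, at 7438 CPM. Grhl3 KO library 1026, next at 4664 CPM, had the lowest Gdf15 of its group. With the muscle level held fixed in the fit, the Gdf15 fold change was 1.28. A link between Gdf15 and muscle level was not tested.

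Genes of metabolism and repair showed no difference past the spread. Sesn2, a stress-induced inhibitor of mTORC signalling, ran from 29.3 to 55.9 CPM in Grhl3 KO and from 23.9 to 46.3 CPM in wild type. Its relative Sesn1 ran from 39.4 to 89.2 and from 46.8 to 95.7 CPM, with the highest values in Grhl3 KO library 1026 and wild-type library 1048. Rrm2b, the p53-induced subunit of ribonucleotide reductase, was at 13.8 ± 0.603 CPM (SD, n = 5) in Grhl3 KO, with 13.4 ± 2.10 CPM (SD, n = 5) in the wild-type libraries. Polk, a DNA polymerase that copies past bulky adducts, was at 18.6 ± 3.86 and 18.1 ± 4.74 CPM. The log2 fold changes of the 4 were 0.21, -0.23, 0.04 and 0.04 (edgeR adjusted p from 0.903 to 0.989). Of the Rrm2b transcript 27.7% is near-identical to 2 other genes.

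**Figure D3:**
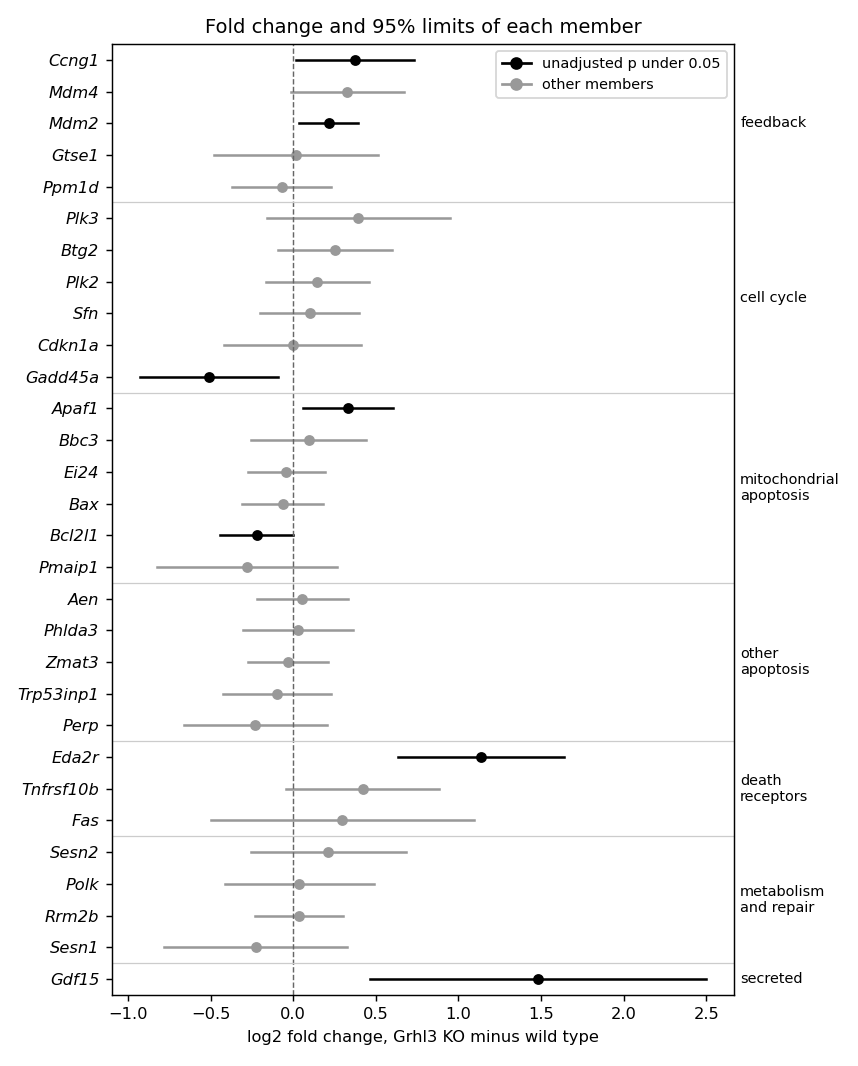
Points show the log2 fold change of each member (Grhl3 KO minus wild type) and lines its 95% limits, grouped by role; black marks the 7 members with an unadjusted p under 0.05 and grey the other members. Eda2r and Gdf15 lie above 1, Gadd45a at -0.51, and the limits of 23 members include 0.

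The rest of the pathway was read from lists drawn up beside the members. Of 24 tested genes upstream of p53 (damage kinases, adaptors, ubiquitin ligases, acetyltransferases and the p53 family), 12 were higher and 12 lower, 0 were called and the median was -0.0038. The p53 gene itself, Trp53, which was singled out after the naming rule was set, stood at 69.8 to 77.0 CPM in Grhl3 KO and 48.9 to 109.6 CPM in wild type, and its log2 fold change was 0.07 (edgeR adjusted p = 0.972). Trp73, encoding the relative p73, had Grhl3 KO and wild-type means of 13.6 ± 2.98 and 25.5 ± 10.1 CPM (SD, n = 5 each; log2 fold change -0.91, unadjusted p = 0.00458, edgeR adjusted p = 0.428). Trp63 was at -0.18, the kinase gene Hipk2 at 0.31 and the damage adaptor gene Trp53bp1 at 0.17, with edgeR adjusted p from 0.731 to 0.824.

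A further 29 tested genes known as p53 targets, none of them members, had 12 higher and 17 lower, 0 called and a median of -0.02. In them 0 higher and 1 lower stood at an unadjusted p under 0.05, the lower being Tnfaip8, an apoptosis regulator, at -0.25. Triap1 was at -0.18 and Dusp14 at 0.51 (edgeR adjusted p = 0.754 and 0.760). Cell cycle genes that p53 represses through p21 and the DREAM complex had 11 of 20 higher and 9 lower, 0 called and a median of 0.01. Cdc20 was at 0.21, Top2a at 0.16, Plk1 at -0.24 and Cdc25c at -0.33, each at an edgeR adjusted p of 0.871 or more. The genes of the ATF4 and CHOP stress response, which share Sesn2, Gdf15, Bbc3 and Tnfrsf10b as targets with p53, had 7 of 18 higher and 11 lower, 0 called and a median of -0.02. Of these Ddit4 was at -0.32, Trib3 at -0.47, Ppp1r15a at 0.28 and Slc7a11 at 0.51 (edgeR adjusted p from 0.668 to 0.792).

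The level of squamous differentiation genes differed between libraries of the same group. Their summed level ran from 21757 to 46227 CPM in Grhl3 KO and from 15848 to 85065 CPM in wild type. The sum was not shown to differ between the groups (exact permutation p = 0.706, adjusted 0.879), although single genes did at an unadjusted p. That sum leans on its most abundant genes and does not speak for each gene of the list. Krt13 alone averaged 14534 of 32778 CPM in Grhl3 KO and 18519 of 40231 CPM in wild type. Of 18 squamous differentiation genes, 4 were higher and 14 lower in Grhl3 KO with a median of -0.45. Beside 7.16% of all genes, 9 of the 18 (50%) stood at an unadjusted p under 0.05, 2 higher and 7 lower. Of these 1, Krt1, named here after its values were seen, was called higher. Basal keratinocyte genes had 1 of 13 higher and 12 lower, 0 called and a median of -0.28. The mean log2 CPM of 18 squamous differentiation genes ran from 8.25 in wild-type library 1048 to 9.85 in wild-type library 1028, and from 8.57 to 9.50 in Grhl3 KO. Over the 10 libraries, Perp correlated with it at a Pearson r of 0.82 (permutation p = 0.00096) and a Spearman rho of 0.83 (permutation p = 0.00492). Without the 2 libraries farthest from the median, 1028 and 1048 of wild type, r was 0.80. Plk3 had an r of 0.80 (permutation p = 0.00441) and a rho of 0.72 (permutation p = 0.0233), with r at 0.85 without those 2 libraries. Cdkn1a had an r of 0.74 (permutation p = 0.0186) and a rho of 0.60 (permutation p = 0.073), with r at 0.66 without them. Gtse1 went the other way, with an r of -0.75 (permutation p = 0.0103) and a rho of -0.67 (permutation p = 0.0389), and r at -0.55 without them.

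These relations are 4 of 90, from 30 members and 3 gene lists, and 0 of the 90 kept an adjusted p under 0.05. The Benjamini-Hochberg adjusted p of r was 0.0864 for Perp and 0.186, 0.245 and 0.186 for Plk3, Cdkn1a and Gtse1; for rho they were 0.221, 0.409, 0.475 and 0.437. They were named after their values were seen. Taken as deviations from the group means, r was 0.85 for Perp, 0.93 for Plk3, 0.73 for Cdkn1a and -0.75 for Gtse1. Within Grhl3 KO alone Gtse1 showed no such order, with an r of -0.05 against -0.93 within wild type. With 5 libraries a group, no test within a group was made. With the squamous level held fixed in the fit, the Plk3 fold change was 0.47 in place of 0.39, the Perp fold change -0.16 in place of -0.23 and the Cdkn1a fold change 0.01.

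**Figure D4:**
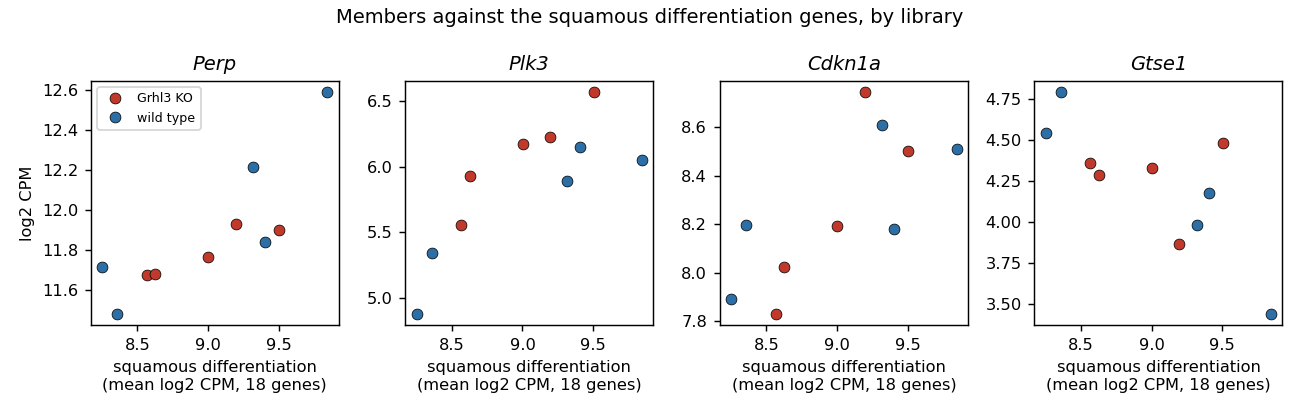
Each point is a library (red, Grhl3 KO; blue, wild type); the horizontal axis is the mean log2 CPM of 18 squamous differentiation genes and the vertical axis the log2 CPM of the member named above the panel, with axes that do not start at 0. Perp, Plk3 and Cdkn1a lie higher in libraries of both groups with more squamous differentiation RNA, and Gtse1 lies lower among the wild-type libraries.

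Gtse1 also went with the cell cycle genes, at an r of 0.77 (permutation p = 0.0076, adjusted 0.186) and a rho of 0.71 (permutation p = 0.0273, adjusted 0.409), with r at 0.72 without wild-type libraries 1028 and 1555. Perp went against them, at an r of -0.75 (permutation p = 0.00901, adjusted 0.186) and a rho of -0.72 (permutation p = 0.0241, adjusted 0.409), with r at -0.58 without those 2. The cell cycle and squamous lists thus ordered these members in opposite directions. With the immediate early genes, Pmaip1 had a rho of -0.84, which gave the smallest permutation p of the 90 rank correlations (0.00377, adjusted 0.221), and an r of -0.70 (permutation p = 0.0255, adjusted 0.279). Without Grhl3 KO library 1027 and wild-type library 1528, r was -0.78. Within Grhl3 KO alone r was 0.10, against -0.96 within wild type.

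Across the libraries as wholes, the mean deviation of the 30 members from their own averages was highest in Grhl3 KO library 1026, at 0.16 on the log2 scale, and lowest in wild-type library 1528, at -0.13. Grhl3 KO libraries 1027, 1036 and 1043 lay at 0.08, 0.04 and 0.12, so that 4 of the 5 lay above every wild-type library. Grhl3 KO library 1035 lay at -0.06, below wild-type libraries 1048, 1555 and 1561 at -0.05, -0.03 and -0.03. Grhl3 KO libraries 1026 and 1043 each held the highest level of 5 members, and wild-type library 1028 held the lowest level of 8. Libraries 1026 and 1043 also had the lowest totals, 15.3 and 17.3 M counts, and the most skeletal muscle RNA. Library 1028 had the highest squamous differentiation sum, at 85065 CPM. Links of these to the member levels were not tested. The members of largest fold change, Eda2r at 1.14 and Gdf15 at 1.48, weigh on the mean deviation, while the median member fold change was 0.05. No such mean was taken over all genes, and no test was made on it.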

How the data were processed

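The authors deposited whole-number counts per protein-coding gene, without normalization, in 10 columns, which were joined to samples by the number in their titles; the knockout columns carry the tag L2Cre, which no label explains. The submitters' processing notes name featureCounts and GRCm38; what aligner and annotation were used is unknown here. Per the labels, the counts are reverse-stranded. The table holds 0 rows without a gene name and 0 other value columns.

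Genes were kept with filterByExpr of edgeR 4.0.16 in R 4.3.3 (minimum count 10, minimum total 15), which left 13731. Counts were TMM-scaled and tested with the robust quasi-likelihood F-test, with Benjamini-Hochberg adjustment over all genes. Standard errors follow from the F statistic. Log2 CPM carries a prior count of 2. Group values of single measures were compared by exact permutation (smallest possible p 0.00794), and correlations with 100000 resamples. Exon lengths and positions come from GENCODE M21 (GRCm38). Transcript similarity used blastn stretches of at least 75 bases at 95% identity, on either strand. Genes that overlap a member were not left out of it. The fit was tested on simulated data.

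The members and lists were chosen with earlier results of these data known. The text names all members, up to 4 genes of smallest p per pathway list, the most abundant cell type markers and the grainyhead-like genes; others are marked, and 1 gene that this rule names is not reported here. Alternatives were 3 scalings, DESeq2 1.42.0, limma 3.58.1 voom, dispersions that were not robust, 2 filters, each library left out, the sample number series, and 4 covariates.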

Additional observations from a re-analysis of the deposited data

Results flagged for a closer look

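In 4 of the 60 sets of 5 libraries (30 members in each group), a single library lay far from the other 4 by Dixon's ratio, where chance gives about 1 in 20, or 3. Gdf15 reached 3.22 CPM in library 1043 of Grhl3 KO, against 0.881 to 1.12 CPM in the rest of its group. Tnfrsf10b reached 22.7 CPM in library 1026, against 12.5 to 13.9 CPM in the rest of its group. Sesn1 was at 89.2 CPM in the same library 1026, against 39.4 to 49.4 CPM. Ei24 was at 94.1 CPM in Grhl3 KO library 1035, against 121 to 131 CPM.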

How the results depend on the processing

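Over 25 alternatives, 18 of the 30 members kept the sign of their fold change throughout, among them all 7 with an unadjusted p under 0.05. Gdf15 had no value under the filter of 1 CPM in 5 samples. The count of called members was 0 in each alternative except DESeq2, where it was 1, Eda2r. The count of all genes called moved to 118 with DESeq2, 7 without a filter, 53 with squamous level held fixed, and 1 with limma voom, with the number series as a term, within the number series 1026 to 1048, with Y-linked level held fixed and without wild-type libraries 1528 and 1555 together (added after the data were seen). With a single library left out it ran from 1 to 16. Members at an unadjusted p under 0.05 numbered from 3 to 9.

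The median member fold change was 0.15 with the number series as a term and 0.15 within that series, which holds 2 wild-type libraries. With a library left out it was 0.0262 to 0.12, the highest without wild-type library 1561. Among the larger shifts within the series, Phlda3 went from 0.03 to 0.41 and Gdf15 from 1.48 to 2.13. Sesn1 went from -0.23 to -0.59 and Pmaip1 from -0.28 to -0.59. Members close to 0, and Fas at 0.30, changed sign. With the number series as a term and within the series, the values were Fas at -0.14 and -0.14, Bax at 0.0248 and 0.0265, Rrm2b at -0.0343 and -0.0329, Zmat3 at 0.0346 and 0.0363 and Cdkn1a at 0.0635 and 0.0656. With Y-linked level held fixed and without 1528 and 1555, they were Rrm2b at -0.0178 and -0.00566, Zmat3 at 0.0739 and 0.0658, Gtse1 at -0.0865 and -0.0893 and Cdkn1a at 0.0905 and 0.0761. Gtse1 was at -0.00173 with upper-quartile scaling and -0.0153 with total counts, and Cdkn1a at 0.00383 without a filter and 0.0107 with squamous level held fixed. With a library left out the range was -0.0214 to 0.14 for Aen, -0.13 to 0.0277 for Bax, -0.15 to 0.0933 for Cdkn1a, -0.0874 to 0.034 for Ei24, -0.0616 to 0.47 for Fas, -0.14 to 0.19 for Gtse1, -0.0893 to 0.12 for Phlda3, -0.0913 to 0.14 for Polk, -0.13 to 0.0259 for Ppm1d, -0.0227 to 0.13 for Rrm2b, -0.17 to 0.000928 for Trp53inp1 and -0.0783 to 0.0328 for Zmat3. The causes were not tested. Of the correlations named, 6 with the squamous and cell cycle lists and that of Pmaip1 with the immediate early list kept their sign under 3 scalings and with each library left out. No paired analysis was possible because the groups share no replicate numbers.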
